A study of Homo sapiens with 32 samples.

Results

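Complex I and the proteins encoded by mitochondrial DNA were described here across human U2OS and HEK293T cells through 50 protein-coding genes. They were chosen by symbol from the 60107 genes counted. Of these genes 37 lie in the nucleus and carry the names of complex I subunits (NDUFA, NDUFB, NDUFC, NDUFS or NDUFV with a number), and 13 lie on the mitochondrial chromosome (7 complex I subunits named MT-ND and 6 subunits of other complexes). U2OS is a line from a human osteosarcoma and HEK293T a line from human embryonic kidney. RNA was sequenced from the 3′ end of each transcript, in 32 libraries.

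The labels describe U2OS cells given camptothecin (CPT) or its vehicle DMSO, HEK293T cells given CPT or DMSO, U2OS cells without treatment that were wild type or ATM KO, and HEK293T cells marked ATM KO. CPT traps topoisomerase 1 on DNA, and ATM is a kinase of the DNA damage response. Treated HEK293T cells had, per the labels, 24 h of treatment and 48 h of recovery, and untreated U2OS cells 72 h of growth. No time is stated there for U2OS cells with CPT. The HEK293T libraries marked ATM KO, 18 to 21, were taken as cells with an ATM inhibitor, since the study describes RNAseq of HEK293T cells for an inhibitor and not for a knockout. Libraries are numbered as in their titles. The study describes independent repeats for each experiment, and the labels do not say which library belongs to which repeat.

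The profiles of libraries 2 to 16 went against the cell line of their labels, those of 1 and 17 did not, and libraries 1 to 17 were compared as 4 sets of 4 by number. The summed level of 10 markers of U2OS cells was between 4750 and 9532 CPM (counts scaled to the same total in every library) in libraries 1 to 8, of which 2, 4, 6 and 8 are labelled HEK293T CPT, 3, 5 and 7 HEK293T DMSO and 1 U2OS wild type. It was between 109 and 352 CPM in libraries 10 to 17, of which 10, 12, 14 and 16 are labelled U2OS ATM KO, 11, 13 and 15 U2OS wild type and 17 HEK293T DMSO. In libraries 26 to 33, labelled U2OS, the sum was 5607 to 11193 CPM, and in libraries 18 to 25, labelled HEK293T, 126 to 185 CPM. COL1A2, a marker on that list, was at or near 0 in every library. The summed level of 5 HEK293T markers was 169 to 355 CPM in libraries 1 to 8 and 26 to 33, and 681 to 1198 CPM in the rest. CKB made up most of the latter sum, at 534 to 984 CPM in the rest against 27.2 to 72.4. LIN28B was also higher in the rest, at 61.0 to 102 against 6.35 to 18.5 CPM. BEX1 went the other way, at 0.617 to 11.6 in the rest against 43.8 to 162 CPM, and NEFL and PAX2 overlapped. No direction for a condition is drawn from libraries 1 to 17. ATM itself, the gene a knockout would target, was counted in all 32 libraries, and its levels overlapped between the sets compared. Its fold change in libraries 18 to 21 against 22 to 25 was −0.06 ± 0.12 (SE) on the log2 scale (edgeR adjusted p = 0.977). A 3′ count does not show whether a transcript encodes a working kinase.

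Complex I takes electrons from NADH, passes them to ubiquinone and pumps protons across the inner mitochondrial membrane. Its matrix arm, built of nuclear subunits, holds the flavin and the iron-sulfur clusters, while the core of its membrane arm consists of the MT-ND proteins. Nuclear subunits are made in the cytosol and imported. Mitochondrial DNA is transcribed from each strand into long RNA that is cut into single messengers, with the exception of MT-ATP8 with MT-ATP6 and of MT-ND4L with MT-ND4, which stay joined. MT-ND6 is the only protein encoded by the other strand.

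Since 3′ counting yields about the same number of fragments from a long and a short transcript, CPM were not divided by length. In GENCODE 29, on build GRCh38, MT-ATP8 and MT-ATP6 share 46 bases (chrM:8527-8572) and MT-ND4L and MT-ND4 share 7 (chrM:10760-10766), so that the split of reads within these pairs is uncertain. Reads of all 13 genes can also match their nuclear pseudogenes, which held 208 to 1403 CPM in sum. 3′ libraries are primed at runs of A, and the stretches around the longest run of A inside selected genes are shown for MT-ND5 and MT-ND1, which changed most after CPT, for MT-ATP8, which was called least firmly, and for MT-ND6, which comes from the other strand. The run is in capitals and the strand is that of the messenger. Whether any fragment started there was not tested.
MT-ND5 (chrM:12337-14148, + strand): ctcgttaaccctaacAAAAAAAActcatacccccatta
MT-ND1 (chrM:3307-4262, + strand): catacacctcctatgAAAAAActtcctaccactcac
MT-ATP8 (chrM:8366-8572, + strand): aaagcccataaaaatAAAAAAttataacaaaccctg
MT-ND6 (chrM:14149-14673, − strand): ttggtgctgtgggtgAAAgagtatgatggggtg
The run was 8 bases long in MT-ND5, 6 in MT-ND1 and MT-ATP8, and 3 in MT-ND6 and MT-ND4L.

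All 50 genes were counted in every library, from 13 to 134112 counts, and all of them passed the filter on low counts in each comparison. A library held between 1232674 and 6362433 counts assigned to genes, at which 3 counts equal 2.43 to 0.472 CPM. The 13 mitochondrial genes together held far more of the counts than the 37 nuclear genes. In U2OS cells with DMSO the mitochondrial sum was 118764, 120635, 156509 and 159988 CPM, in order of size, and the nuclear sum 3282, 3521, 3690 and 3715 CPM. The mitochondrial sum was lower in libraries 30 and 31 than in 32 and 33, and the nuclear sum was higher in 30 and 31. In HEK293T cells with DMSO, libraries 22 to 25, the mitochondrial sum was 68645 to 85331 CPM and the nuclear sum 4117 to 4564 CPM. Per library the ratio of the sums was 32.2 to 47.7 in the former and 15.1 to 20.7 in the latter.

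**Figure D1:**
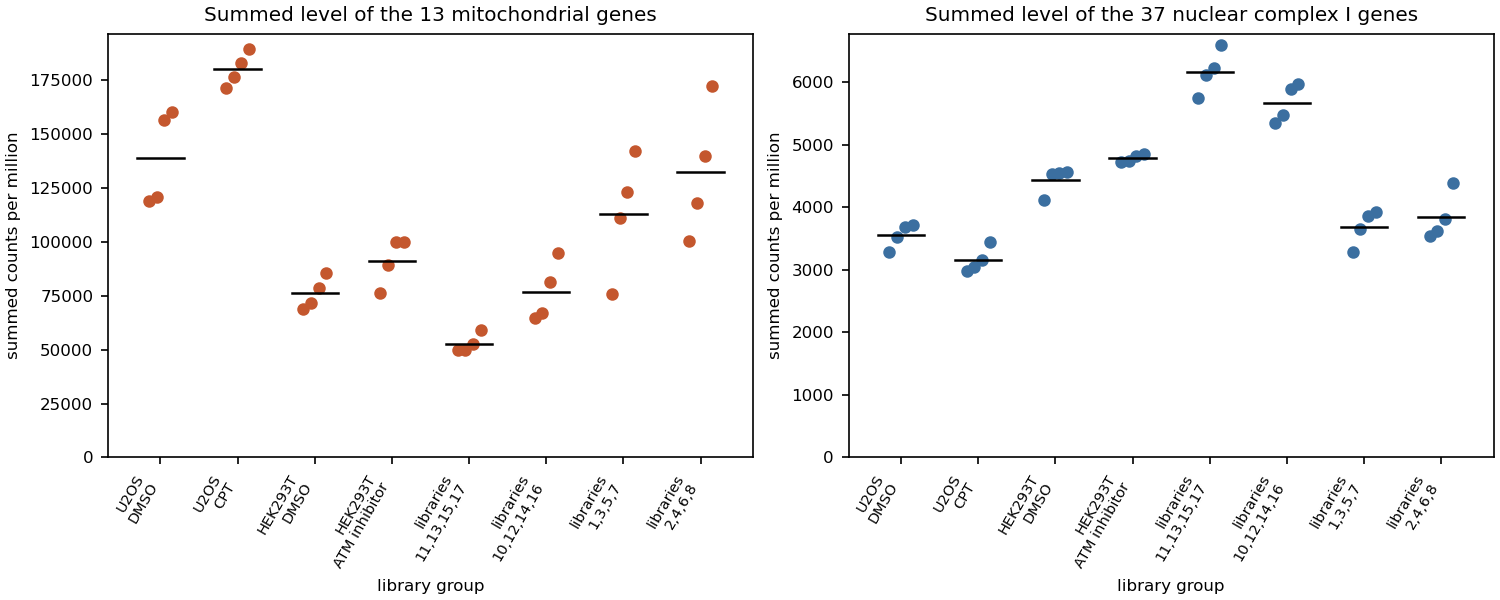
Summed CPM (y axis, from 0) of the 13 mitochondrial genes (left) and of the 37 nuclear complex I genes (right) in each of the 8 library groups (x axis). Points are single libraries and lines are means of 4. U2OS CPT libraries sit between 171315 and 189485 for the mitochondrial genes, above the 4 DMSO libraries, while the nuclear sums of these groups overlap.

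The first question was what CPT did to these transcripts in U2OS cells (libraries 26 to 29 against 30 to 33). Mitochondrial messengers were higher after CPT and nuclear complex I genes moved both ways. Of the 13 mitochondrial genes 12 rose and 0 fell at an adjusted p under 0.05, where 16.6% of the 19080 genes tested rose and 15.3% fell. Of the 37 nuclear genes 4 rose and 10 fell. The median log2 fold change was 0.58 (0.13 to 0.96) for the mitochondrial genes, −0.14 (−0.63 to 0.71) for the nuclear genes and 0.01 over all genes tested. None of the 50 genes passed the study's further cutoff of an absolute log2 fold change over 1, which 13.5% of genes tested did together with the adjusted p. The summed level of the mitochondrial genes was 171315 to 189485 CPM with CPT. Groups did not overlap in this sum. Values of single genes below are CPM scaled by TMM within each comparison, a factor per library that balances the bulk of genes.

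MT-ND5, a proton-pumping subunit at the far end of the membrane arm, changed most of the mitochondrial genes. It was at 7690, 9067, 10357 and 10967 scaled CPM with CPT, and at 3825, 4979, 5588 and 5218 with DMSO. Every CPT library was above every DMSO library. Its log2 fold change was 0.96 ± 0.13 (SE, n = 4 and 4; edgeR adjusted p = 4.83e-07). MT-ND1, which lies next to the ubiquinone site, was at 9877, 8925, 5944 and 6264 scaled CPM with CPT, and at 3252, 3236, 5174 and 5434 with DMSO. Here too the groups were apart, but libraries 28 and 29 were only slightly above 32 and 33. The log2 fold change was 0.86 ± 0.16. MT-CO2, the complex IV subunit that accepts electrons from cytochrome c, rose by 0.76 ± 0.14, and MT-ND2 by 0.73 ± 0.13. MT-CO1, the catalytic subunit of complex IV, rose by 0.65 ± 0.12. Its levels were 5836 to 7437 scaled CPM with CPT and 3638 to 4786 with DMSO, without overlap.

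MT-CYB, the mitochondrial subunit of complex III, and MT-ND4 each rose by 0.58 on the log2 scale, with an SE of 0.15 and 0.14. MT-ND6, from the other strand, was at 390, 507, 521 and 657 scaled CPM with CPT and at 296, 354, 355 and 392 with DMSO. Only library 26 fell within the DMSO range. The log2 fold change of 0.57 ± 0.13 lay close to those of MT-ND4 and MT-CYB. MT-ND4L rose by 0.47 ± 0.11, MT-CO3 by 0.43 ± 0.12, MT-ND3 by 0.40 ± 0.12 and MT-ATP8 by 0.37 ± 0.14 (adjusted p = 0.0409). The call of MT-ND3 was lost without library 27 (0.33), and that of MT-ATP8 without library 27, 28, 29, 30 or 31 (0.25 to 0.41).

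MT-ATP6, a membrane subunit of ATP synthase, was the mitochondrial gene not called. It was at 18520, 20353, 15890 and 15724 scaled CPM with CPT and at 11619, 11491, 18405 and 22788 with DMSO. The DMSO libraries fell on both sides of the CPT libraries, 30 and 31 below and 33 above. Its log2 fold change was 0.13 ± 0.16, and between −0.01 and 0.35 with 1 library left out. DMSO libraries 32 and 33 were also above 30 and 31 for every other mitochondrial gene but MT-ATP8, where libraries 31 and 33 were both at 13124 scaled CPM. As a share of the 13-gene sum, MT-ATP6 held 8.22 to 9.90% with CPT and 10.3 to 14.2% with DMSO. MT-ND5 held 4.11 to 5.74% and 3.26 to 4.46%, and MT-ND4, with the most counts, 18.4 to 20.6% and 16.7 to 20.1%.

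**Figure D2:**
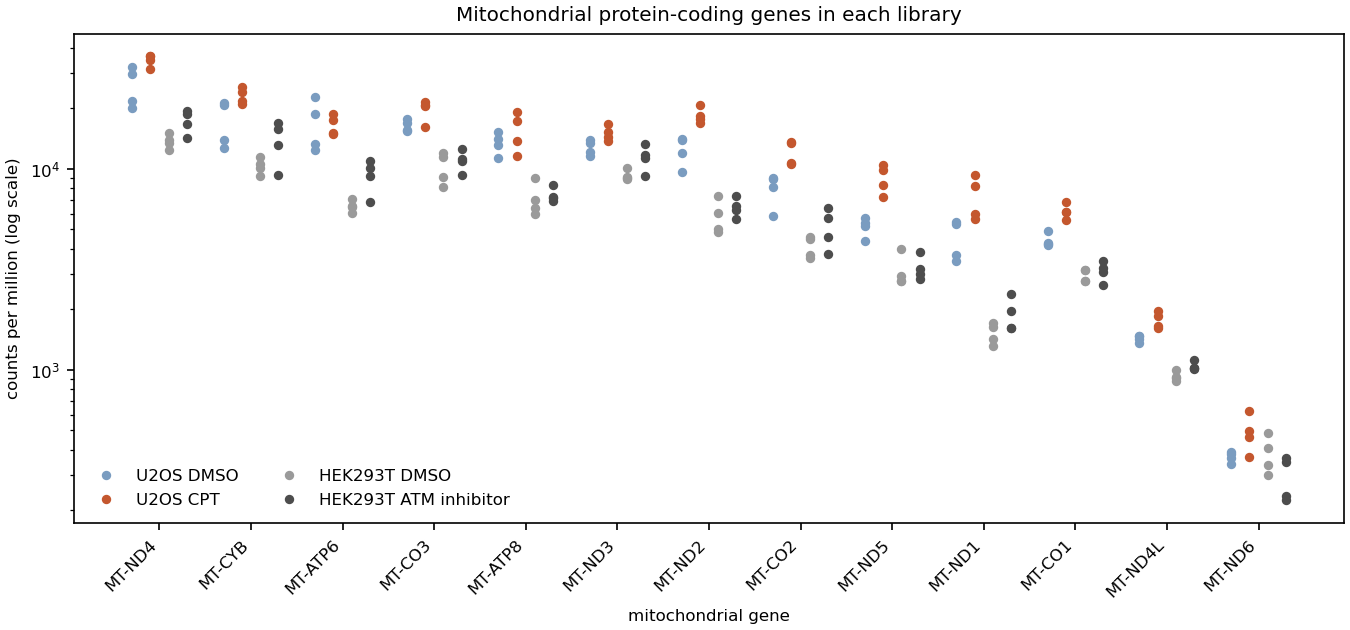
CPM (y axis, log scale) of each mitochondrial gene (x axis, in order of the mean in U2OS DMSO libraries) in U2OS cells with DMSO or CPT and in HEK293T cells with DMSO or the ATM inhibitor. Points are single libraries, 4 per group. MT-ND4 is highest and MT-ND6 lowest in each group, and HEK293T points lie below all U2OS points except for MT-CO2, MT-CYB, MT-ND3 and MT-ND6, where they overlap.

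Other mitochondrial transcripts moved alongside. The mitochondrial ribosomal RNAs MT-RNR1 and MT-RNR2 rose by 0.60 ± 0.13 and 0.54 ± 0.12 on the log2 scale. All genes of the mitochondrial chromosome took 30.5 to 32.3% of counts with CPT and 20.6 to 26.8% with DMSO. The counts that fell on no gene were 30.9 to 39.9% of all counts with CPT and 33.6 to 38.7% with DMSO, ranges that overlap. The sum of U2OS markers was also higher with CPT, 9555 to 11193 CPM against 5607 to 6932, and its part in the result was not tested. In bulk RNA, a change in the number of cells of a kind and in the RNA per cell cannot be told apart.

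The nuclear genes called as lower came from both the matrix arm and the membrane arm. Of 16 matrix arm genes 1 rose and 5 fell, and of 20 membrane arm genes 2 rose and 5 fell. With genes not called included, 14 of 16 matrix arm genes were below 0 (median −0.20), against 10 of 20 membrane arm genes (median −0.03). NDUFS7 (chr19:1383527-1395589), a core subunit that carries the last iron-sulfur cluster before ubiquinone, was at 8.73, 13.5, 11.3 and 10.5 scaled CPM with CPT and at 14.5, 16.2, 16.9 and 18.5 with DMSO. The groups did not overlap at this low level. Its log2 fold change was −0.60 ± 0.18 (adjusted p = 0.0123), and it was not called without library 26 (−0.50). NDUFV2 (−0.48 ± 0.17) and NDUFS8 (−0.44 ± 0.15), both iron-sulfur subunits, also fell. Their groups overlapped. The call of NDUFV2 was lost without library 26, 27, 28, 31 or 33, and that of NDUFS8 without library 28 or 33. Further core subunits were not called, at −0.25 ± 0.13 for NDUFS1, −0.06 ± 0.13 for NDUFS3 and 0.28 ± 0.15 for NDUFV1, which binds NADH.

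Among accessory subunits, NDUFB11 (chrX:47142216-47145504, − strand) changed most in the negative direction. It was at 51.5, 54.7, 61.2 and 52.0 scaled CPM with CPT and at 62.0, 85.1, 77.2 and 113 with DMSO, without overlap although libraries 28 and 30 were close. Its log2 fold change was −0.63 ± 0.14 (adjusted p = 0.000906). NDUFA12 (chr12:94897055-95003770, − strand) fell by 0.60 on the log2 scale (SE 0.13), from 43.8 to 55.4 scaled CPM with DMSO to 28.7 to 39.0 with CPT. NDUFA3 fell by 0.45 (SE 0.16), a call lost without library 27, 28 or 32, and NDUFB10 by 0.41 (SE 0.14), a call lost without library 27, 28 or 33. NDUFB6 and NDUFB4 fell as well, by 0.39 and 0.33, with groups that overlapped. The call of NDUFB6 was lost without library 26, 27, 29 or 31, and that of NDUFB4 without 26, 27, 28 or 31. NDUFS4, an accessory subunit of the matrix arm, was not called (−0.20 ± 0.13).

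The genes in the other direction were NDUFV3, NDUFB9, NDUFB8 and NDUFA4. NDUFV3 (chr21:42879644-42913304), a small accessory subunit at the tip of the matrix arm, was at 80.8, 86.5, 75.8 and 54.2 scaled CPM with CPT and at 46.6, 39.8, 43.5 and 51.5 with DMSO. The lowest CPT library was just above the highest DMSO library. It had a log2 fold change of 0.71 ± 0.14 (adjusted p = 0.000128). NDUFB9, the most abundant of the nuclear genes in U2OS cells, rose by 0.43 ± 0.11, with 609 to 776 scaled CPM with CPT and 472 to 520 with DMSO. NDUFB8 rose by 0.33 ± 0.13, a call lost without library 26, 27, 30, 31 or 32 and by DESeq2. NDUFA4, today counted as a subunit of complex IV despite its name, was at 0.29 ± 0.11 (adjusted p = 0.049), and this call was lost without any of 7 of the 8 libraries and in 5 other settings. Nuclear genes called numbered 7 without library 27 and 9 without library 28 or 31, against 14 with all. Without TMM factors, at which the median of all genes shifts by −0.17, 1 nuclear gene rose and 17 fell, and 10 mitochondrial genes rose. Of all 19080 genes tested 2283 then rose and 4253 fell.

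**Figure D3:**
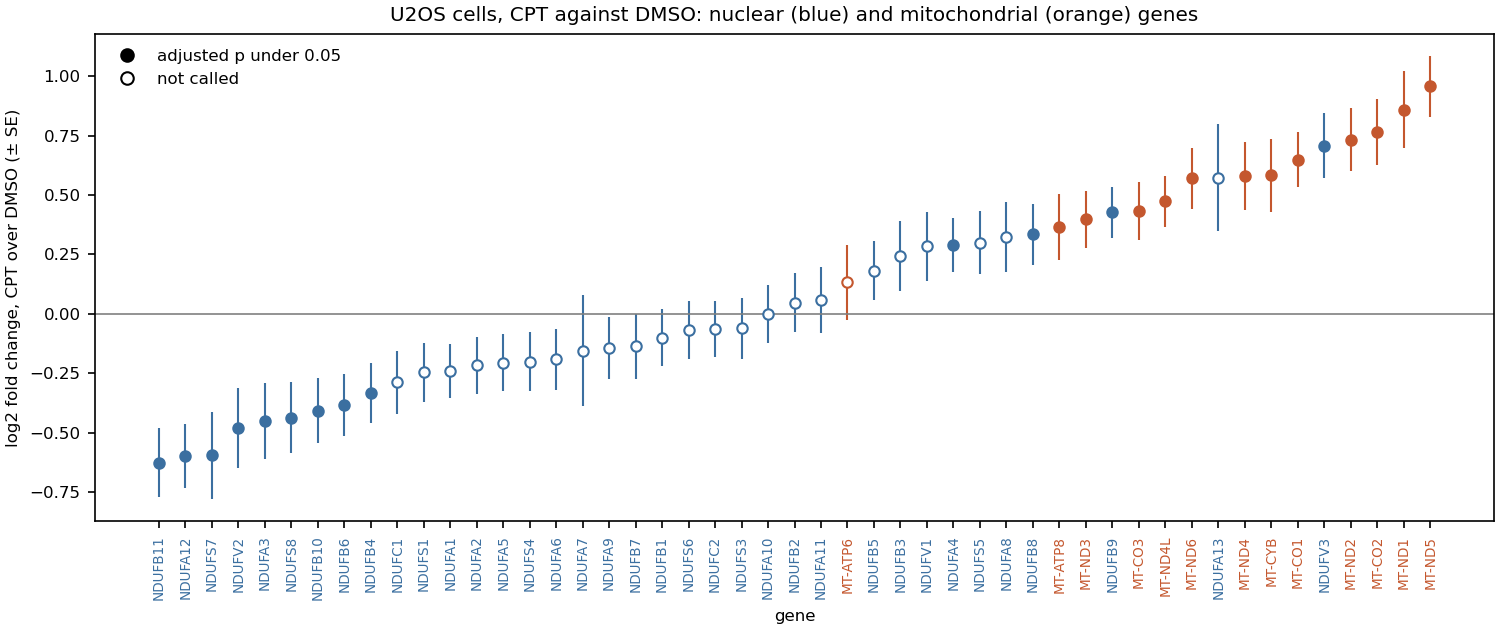
Log2 fold change of CPT over DMSO in U2OS cells (y axis) for the genes named on the x axis, in order of fold change, with bars of ± 1 SE from 4 against 4 libraries. Filled points passed an adjusted p under 0.05. Mitochondrial genes (orange) lie between 0.13 and 0.96, and nuclear genes (blue) between −0.63 and 0.71.

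Promoters of the nuclear genes were searched for letters bound by factors known for genes of respiration. RefSeq promoters (GRCh38.p14, 250 bases before to 50 after the start) were found for 31 of the 37 genes. GCGCATGCG, a match to the motif of NRF1 on either strand, stood in 4 of them (12.9%), those of NDUFA8, NDUFB4, NDUFS6 and NDUFS7, against 1.92% of 35116 promoters. The members had a single promoter per gene, while the 35116 were not limited to a single one per gene or to protein-coding genes. The shares thus come from sets that are not alike. AAGATGGCG, a match to YY1, stood in 5 (16.1%), those of NDUFA6, NDUFA7, NDUFA9, NDUFS4 and NDUFS7, against 1.75%. CCGGAAGT of the ETS family stood in 2 (6.45%, against 4.14%), those of NDUFA13 and NDUFS1, and TCAAGGTCA of the ERR factors in 0 (against 0.353%). These windows show the NRF1 letters in capitals, on the strand of the gene, for promoters whose genes fell (NDUFS7, NDUFB4) or were not called (NDUFS6) after CPT.
NDUFS7 (chr19:1383818-1383856, + strand): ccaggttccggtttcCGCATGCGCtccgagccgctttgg
NDUFB4 (chr3:120596162-120596200, + strand): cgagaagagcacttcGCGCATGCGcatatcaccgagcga
NDUFS6 (chr5:1801346-1801384, + strand): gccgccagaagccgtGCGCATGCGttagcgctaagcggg
NDUFS6 was at −0.07 ± 0.12 on the log2 scale and NDUFA8 at 0.32 ± 0.15 after CPT, both not called.

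Other genes of the mitochondrion were described by lists, again at an adjusted p under 0.05. Counts for U2OS cells with CPT stand beside 16.6% of all genes tested that rose and 15.3% that fell. In U2OS cells with CPT, 4 of 16 assembly factors of complex I rose and 2 fell, with NDUFAF6 at 1.10 ± 0.17, NDUFAF8 at 0.82 ± 0.12 and TIMMDC1 at 0.67 ± 0.12. Of 4 genes of complex II 0 were called. Of 9 nuclear genes of complex III 1 rose (UQCR11, 0.34 ± 0.13) and 1 fell (CYC1, −0.37 ± 0.13). Of 10 of complex IV 1 rose (COX6C, 0.35 ± 0.12) and 0 fell. Of 15 of ATP synthase 1 rose (ATP5MC1, 0.41 ± 0.11) and 3 fell, among them ATP5F1D (−0.73 ± 0.22) and ATP5MC2 (−0.67 ± 0.11). Of 78 genes of the mitochondrial ribosome 1 rose and 7 fell, with MRPL48 at −1.13 ± 0.17, MRPL54 at −1.05 ± 0.25 and MRPL53 at −0.84 ± 0.28. The medians of these lists were between −0.08 and 0.12. Of 387 pseudogenes of the mitochondrial genes 42 were tested, of which 6 rose and 2 fell.

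Of 24 genes for the upkeep of mitochondrial DNA and RNA 5 rose and 0 fell, beside 16.6% and 15.3% of all genes tested. LRPPRC, which keeps mitochondrial messengers stable, was at 0.49 ± 0.12, POLG2, a subunit of the mitochondrial DNA polymerase, at 0.73 ± 0.16 and TEFM, an elongation factor of mitochondrial transcription, at 0.54 ± 0.20. POLRMT, the mitochondrial RNA polymerase, was not called (0.33 ± 0.27), nor were TFAM (−0.25 ± 0.11), TOP1MT, the mitochondrial topoisomerase (−0.31 ± 0.15), and TOP1 (−0.16 ± 0.14). Of 8 regulators of mitochondrial biogenesis 0 rose and 3 fell, PPARGC1A (−1.54 ± 0.44, from 3.23 to 1.11 scaled CPM), NRF1 (−0.90 ± 0.31) and GABPB1 (−0.57 ± 0.14). PPARGC1A was at 0.312 to 1.69 scaled CPM with CPT, where 3 counts equal 0.883 to 1.04 CPM.

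For HEK293T cells with the ATM inhibitor (libraries 18 to 21, labelled ATM KO, against 22 to 25), none of the 50 genes was called by edgeR's quasi-likelihood test, where 1 of 18413 genes tested was (0.00543%). At an unadjusted p under 0.05 there were 8 mitochondrial and 13 nuclear genes, of 1019 in all. The median log2 fold change was 0.23 (−0.33 to 0.58) for the mitochondrial genes, 0.11 (−0.14 to 0.32) for the nuclear genes and 0.00 over all genes. MT-ATP6 had the smallest adjusted p of the 50, 0.366. It was at 9638, 10723, 11377 and 6576 scaled CPM with the inhibitor and at 6328, 6968, 5829 and 6490 with DMSO. Libraries 18 to 20 were above the DMSO range and library 21 within it. The log2 fold change was 0.58 ± 0.13. Library 21 was the lowest of its group for each mitochondrial gene but MT-CO1, MT-CO3 and MT-ND6, and without it 6 mitochondrial genes and 1 nuclear gene were called. The share of all genes called without library 21 is not given here, so these calls are not read as particular to the 50 genes. MT-ATP6 was called as well by edgeR's likelihood ratio test and with no filter on low counts, and DESeq2 called 0 mitochondrial genes. The lists of other mitochondrial genes had 0 calls as well, with TOP1 at 0.28 ± 0.13, TOP1MT at −0.04 ± 0.14, POLRMT at 0.03 ± 0.20, TFAM at 0.09 ± 0.10, PPARGC1A at 0.18 ± 0.57, MT-RNR1 at 0.06 ± 0.11 and MT-RNR2 at 0.17 ± 0.13. MT-ND6 was the mitochondrial gene below 0, at 237 to 363 scaled CPM with the inhibitor and 301 to 481 with DMSO (−0.33 ± 0.14).

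The nuclear genes of HEK293T cells differed little. NDUFS1, a core subunit, was at 122 to 126 scaled CPM with the inhibitor and at 109 to 121 with DMSO, a log2 fold change of 0.09 ± 0.10. NDUFA1, the most abundant nuclear gene in this line, was at 439 to 537 and 355 to 437 scaled CPM (0.28 ± 0.10). The highest log2 fold change was that of NDUFB11, 0.32 ± 0.11, with 78.7 to 98.5 and 64.5 to 79.7 scaled CPM. None of these passed the adjusted test. NDUFB11 thus had values of the opposite sign in U2OS cells with CPT.

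That difference was tested in a fit over both treatments. The log2 change in U2OS cells with CPT less that in HEK293T cells with the inhibitor was −0.94 ± 0.19 for NDUFB11 (adjusted p = 0.000177). Of the 37 nuclear genes 0 were higher and 11 lower in this contrast, beside 7.35% and 8.08% of 21441 genes. NDUFA3 (−0.74 ± 0.19) and NDUFA12 (−0.74 ± 0.17) followed NDUFB11. Of the mitochondrial genes 3 were higher and 0 lower, MT-ND6 (0.91 ± 0.20), MT-ND5 (0.86 ± 0.18) and MT-CO1 (0.52 ± 0.16). Agent and cell line both differ between these comparisons and cannot be told apart. The count of nuclear genes lower was 5 to 7 without library 18, 19, 23, 24, 27, 28, 29 or 33, and that of mitochondrial genes called was 5 without library 33.

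Libraries 10, 12, 14 and 16 against 11, 13, 15 and 17, all with few U2OS markers, had more of most mitochondrial messengers in the former and less of many nuclear ones. Of the 13 mitochondrial genes 9 were higher and 0 lower, beside 17.6% and 17.3% of 19464 genes, or 34.9% in either direction. Of the 37 nuclear genes 1 was higher and 18 lower. The median log2 fold change was 0.49 (0.12 to 1.13) for the mitochondrial, −0.18 (−0.76 to 0.43) for the nuclear and 0.04 for all genes. MT-ND1 was at 3728, 1892, 3122 and 2156 scaled CPM in the even and at 1103, 1715, 1088 and 1065 in the odd libraries. Library 13 stood above the other odd libraries and close to library 12. The log2 fold change was 1.13 ± 0.18 (adjusted p = 2.87e-05). MT-ND5 was at 4980, 4994, 3787 and 3461 against 1764, 2248, 2294 and 2170 scaled CPM (1.02 ± 0.13), without overlap. These genes passed the cutoff of 1, which 14% of all genes did. MT-ND2 (1.00 ± 0.17), MT-ND4L (0.80 ± 0.13), MT-CO1 (0.69 ± 0.12) and MT-ND3 (0.62 ± 0.13) came next.

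MT-ATP8, MT-CYB and MT-ND4 were higher by 0.43 to 0.49, and these values were lower without library 10. Then MT-ATP8 was at 0.23, MT-CYB at 0.34 and MT-ND4 at 0.29, and none of them was called. MT-CYB also lost its call without library 11, 14, 15 or 17, and MT-ATP8 without 11 or 17. MT-CO2 (0.32 ± 0.13), MT-ATP6 (0.35 ± 0.15), MT-ND6 (0.26 ± 0.17) and MT-CO3 (0.12 ± 0.11) were not called. MT-RNR1 and MT-RNR2 were higher, by 0.97 ± 0.13 and 0.65 ± 0.12. Reads on no gene were 15.8 to 18.5% of all counts in the even and 9.39 to 11% in the odd libraries, and U2OS markers summed to 212 to 352 against 109 to 118 CPM. Their part in the result was not tested.

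Of the nuclear genes, NDUFS4 was at 48.3, 50.2, 52.1 and 53.2 scaled CPM in the even and at 89.6, 90.2, 81.0 and 84.4 in the odd libraries. The sets were far apart relative to their spread. This was a log2 fold change of −0.76 ± 0.11 (adjusted p = 1.91e-05). The core subunits NDUFS8 (−0.75 ± 0.16), NDUFS7 (−0.71 ± 0.13), NDUFV1 (−0.67 ± 0.13) and NDUFS1 (−0.40 ± 0.11) were lower. For the matrix arm 1 of 16 genes was higher and 11 lower, and for the membrane arm 0 of 20 higher and 6 lower. NDUFB10 (−0.66 ± 0.13) and NDUFA11 (−0.65 ± 0.13) led the membrane arm. NDUFA2, an accessory subunit of the matrix arm, was at 274, 274, 312 and 312 against 225, 213, 224 and 209 scaled CPM, the only nuclear gene called higher (0.43 ± 0.10). NDUFA4 was lower by 0.29 ± 0.11, a call lost without library 10, 11, 12, 16 or 17.

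Most other lists had more calls here than in U2OS cells with CPT, by the widest margin for the mitochondrial ribosome. Over all genes tested 34.9% were called here (17.6% higher and 17.3% lower) and 31.9% there. Of the 78 genes of the mitochondrial ribosome 2 were higher and 36 lower, with MRPL24 at −1.33 ± 0.14, MRPS34 at −1.28 ± 0.12 and MRPL38 at −1.19 ± 0.18. Of 16 assembly factors 1 was higher and 6 lower, with ECSIT at −0.99 ± 0.16, NDUFAF4 at −0.84 ± 0.12 and NDUFAF3 at −0.76 ± 0.12. Of complex II 0 of 4 genes were called, and of complex III 0 of 9 were higher and 4 lower (CYC1 −1.12 ± 0.12, UQCRC1 −0.66 ± 0.12, UQCRC2 −0.38 ± 0.11). Of complex IV 1 of 10 was higher (COX7B, 0.41 ± 0.12) and 2 lower (COX5B, −0.39 ± 0.12, and COX8A, −0.30 ± 0.11). Of ATP synthase 0 of 15 were higher and 6 lower, among them ATP5MC2 (−1.37 ± 0.12), ATP5F1D (−0.68 ± 0.16) and ATP5MC1 (−0.55 ± 0.13). Of the genes for upkeep of mitochondrial DNA and RNA 3 of 24 were higher and 6 lower, with TFB1M at −0.92 ± 0.14, and of the regulators of biogenesis 1 of 8 was higher and 3 lower, with PPRC1 at −0.55 ± 0.14 and ESRRA at −0.51 ± 0.14. Of 30 pseudogenes tested 9 were higher and 0 lower. TOP1MT was at −1.24 ± 0.17 and POLRMT at −0.76 ± 0.23, while TOP1 was higher (0.80 ± 0.13), as was PPARGC1A (1.26 ± 0.42), and TFAM was not called (−0.05 ± 0.12). PPARGC1A was at 0.660 to 1.31 scaled CPM in the odd libraries, where 3 counts equal 0.505 to 0.667 CPM.

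All 9 mitochondrial genes called higher in this comparison were among the 12 called after CPT in U2OS cells, 75.0% of the latter. Since 12 of the 13 were called after CPT, this overlap was largely fixed by the counts. Of the nuclear genes 7 were lower in both, which is 70.0% of the 10 in U2OS cells and 38.9% of the 18 here, among them NDUFA12, NDUFB10, NDUFS7 and NDUFS8. With 18 of 37 nuclear genes called lower here, several of any 10 would be shared as well. The overlap of calls over all genes was not counted. The call of NDUFA12 in libraries 10 to 17 was lost without library 10, 11, 12 or 14. NDUFA4 and NDUFB8 were called in opposite directions, and the calls of both were lost in each comparison without single libraries, that of NDUFB8 in libraries 10 to 17 without 10, 11, 12, 13 or 14. When the difference itself was fitted, 0 mitochondrial genes were called, while 8 nuclear genes were higher and 2 lower in U2OS cells with CPT, beside 9.86% and 10.5% of 22363 genes. NDUFV1 (0.95 ± 0.21), NDUFV3 (0.89 ± 0.22) and NDUFA11 (0.71 ± 0.21) led these. NDUFB11 (−0.66 ± 0.22) and NDUFA2 (−0.64 ± 0.16) were lower. These counts carry no condition, since the labels of libraries 10 to 17, except library 17, disagree with their cell line. Grouped as deposited, with library 1 among the wild type and without 17, 1 nuclear and 0 mitochondrial genes were called. That grouping sets libraries of both marker profiles against each other, and its share of all genes called is not given here.

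Libraries 2, 4, 6 and 8 against 1, 3, 5 and 7, all rich in U2OS markers (4750 to 5915 against 6733 to 9532 CPM, without overlap), gave 0 mitochondrial calls by edgeR (DESeq2 0), beside 6.43% of 18591 genes higher and 6.56% lower. The mitochondrial genes varied widely within the sets. MT-ND5 was at 6090, 7171, 7776 and 3565 scaled CPM against 7068, 5450, 4323 and 3528, so that libraries 7 and 8 were both low and the sets overlapped (0.27 ± 0.21). MT-ND4L came nearest, at 0.42 ± 0.18 (adjusted p = 0.132). The medians were 0.21 for the mitochondrial, −0.04 for the nuclear and 0.04 for all genes. Of the nuclear genes 3 were higher and 5 lower. None of the 50 passed the cutoff of 1, which 5.24% of genes did.

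NDUFA10, an accessory subunit that changed most, was at 22.5, 20.6, 20.1 and 26.9 against 48.4, 35.5, 37 and 46.1 scaled CPM. No value of either set came near the other. The log2 fold change was −0.86 ± 0.17 (adjusted p = 0.000253). NDUFV2 was at 97.4 to 155 against 60 to 83.1 scaled CPM (0.83 ± 0.16), NDUFV3 at 64.4 to 83.6 against 34.5 to 49.7 (0.74 ± 0.16) and NDUFA5 at 53.0 to 84.5 against 39.8 to 47.6 (0.62 ± 0.16). NDUFB5 (−0.50 ± 0.15), NDUFS6 (−0.47 ± 0.15) and NDUFB6 (−0.44 ± 0.15) were lower. The call of NDUFB5 was lost without library 6, that of NDUFS6 without 2, 3, 4, 6 or 7, and that of NDUFB6 without 1, 3, 4, 5 or 6. NDUFV3 was thus called higher here and after CPT in libraries 26 to 29, while NDUFV2 was called in opposite directions. Without TMM factors the nuclear calls were 3 higher and 1 lower, beside 1219 higher and 942 lower of all 18591 genes tested. On the other lists, SDHA of complex II (−0.71 ± 0.17), UQCRFS1 (−0.67 ± 0.17) and UQCR10 (−0.60 ± 0.16) of complex III and TFAM (−0.58 ± 0.15) were lower, and FASTK (1.31 ± 0.25) and TIMMDC1 (0.63 ± 0.15) were higher. TOP1 (0.02 ± 0.16), TOP1MT (−0.29 ± 0.17), POLRMT (−0.06 ± 0.26), PPARGC1A (−0.25 ± 0.68), MT-RNR1 (0.21 ± 0.24) and MT-RNR2 (−0.16 ± 0.29) were not called. Of 78 genes of the mitochondrial ribosome 3 were higher and 2 lower, beside 6.43% and 6.56% of all genes tested.

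The lines were compared through their DMSO libraries (30 to 33 against 22 to 25). Levels of nearly all mitochondrial messengers were higher in U2OS cells. Counts on no gene were also higher there, 33.6 to 38.7% against 23.6 to 30.4% of all counts, and their part in the result was not tested. Of the 13 genes 12 were higher and 0 lower, beside 32% of 19739 genes higher and 30.1% lower (62.1% in all), and 6 passed the cutoff of 1, which 39.9% of genes did. The median log2 fold change was 0.97 (0.18 to 1.80), against 0.01 over all genes. MT-ND1 was at 3758, 3721, 5978 and 6133 scaled CPM in U2OS and at 1300, 1226, 1501 and 1607 in HEK293T cells. The lines did not overlap. The difference was 1.80 ± 0.14 on the log2 scale (adjusted p = 2.09e-13), or 3.48-fold. MT-ATP6 (1.61 ± 0.15) and MT-ND2 (1.33 ± 0.14) followed. MT-ND6 was the gene not called, at 342 to 442 and 281 to 454 scaled CPM (0.18 ± 0.12). MT-RNR2 was higher in U2OS cells (0.60 ± 0.11), and MT-RNR1 was not called (0.23 ± 0.12).

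In both lines MT-ND4 had the highest mean count of the mitochondrial genes, followed by MT-CYB, and MT-ND6 the lowest, preceded by MT-ND4L. MT-ND4L, which stays joined to MT-ND4, was at 1437 CPM in U2OS cells with DMSO. The order of 3′ counts therefore need not be the order of messenger amounts. In U2OS cells with DMSO MT-ND4 was at 25980 ± 5962 CPM (SD, n = 4) and MT-ND6 at 369 ± 23.2. In HEK293T cells they were at 13732 ± 1126 and 383 ± 83.2 CPM. MT-CYB, MT-ATP6 and MT-CO3, which followed in U2OS cells at 17185, 16830 and 16468 CPM, did not differ beyond their spread. MT-ND1 and MT-CO1 lay at 4486 ± 1017 and 4405 ± 335 CPM in U2OS cells, whereas in HEK293T cells they were apart, at 1521 ± 184 and 2952 ± 218. In libraries 1 to 8, rich in U2OS markers, MT-CO3 and not MT-ND4 had the highest mean of the 13, by less than the spread of either gene.

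The nuclear genes differed between the lines in both directions. Of 37, 10 were higher in U2OS cells and 20 lower, with a median of −0.34 (−1.93 to 1.45). NDUFA7 was at 7.78, 12.5, 12.9 and 17.7 scaled CPM in U2OS and at 52.0, 48.4, 45.9 and 49.2 in HEK293T cells, with no overlap (−1.93 ± 0.17). NDUFA13 (−1.58 ± 0.19), NDUFV3 (−1.44 ± 0.12) and NDUFS7 (−1.26 ± 0.14) were lower too. NDUFB9 was at 545 to 594 against 190 to 244 scaled CPM, 2.73-fold higher in U2OS cells (1.45 ± 0.11), and NDUFV2 at 48.3 to 85.0 against 19.4 to 29 (1.40 ± 0.16). Of the core subunits named, NDUFV2 was higher, NDUFS7, NDUFV1 and NDUFS3 were lower, and NDUFS1 and NDUFS8 were not called. NDUFS4 was at 76.0 to 81.2 against 50.7 to 53.7 scaled CPM (0.57 ± 0.11) and NDUFA4 was higher by 0.32 ± 0.11. Without TMM factors, at which the median of all genes shifts by −0.22, the nuclear calls were 5 higher and 22 lower, and the 12 mitochondrial calls were again all higher. Of all 19739 genes tested 5237 were then higher and 7237 lower. The labels give no batch, so that the line and any difference in preparation cannot be told apart. The same DMSO libraries served as controls in the comparisons of treated cells.

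Counts on the lists below stand beside 32% of all genes tested higher in U2OS cells and 30.1% lower, 62.1% in all. Outside the 50 genes, 12 of 78 genes of the mitochondrial ribosome were higher in U2OS cells and 36 lower, with MRPL55 at −2.04 ± 0.16, MRPL42 at −1.84 ± 0.12 and MRPS33 at −1.49 ± 0.12. Of 16 assembly factors of complex I 1 was higher and 8 were lower, NDUFAF3 by most (−2.19 ± 0.13). Of ATP synthase 1 of 15 genes was higher and 9 lower, with ATP5F1C at −1.64 ± 0.13, of complex III 4 of 9 were higher and 5 lower, and of complex IV 1 of 10 was higher and 4 lower, with COX5A at −1.40 ± 0.11. Of 24 genes for upkeep of mitochondrial DNA and RNA 2 were higher and 12 lower. Of 8 regulators of biogenesis 2 were higher and 4 lower. PPARGC1A was higher (1.80 ± 0.42), POLRMT was lower (−0.56 ± 0.24), and TFAM (0.03 ± 0.10), TOP1MT (0.29 ± 0.15) and TOP1 (−0.22 ± 0.14) were not called. PPARGC1A was at 0.274 to 1.61 scaled CPM in HEK293T cells, where 3 counts equal 0.752 to 0.897 CPM.

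**Figure D4:**
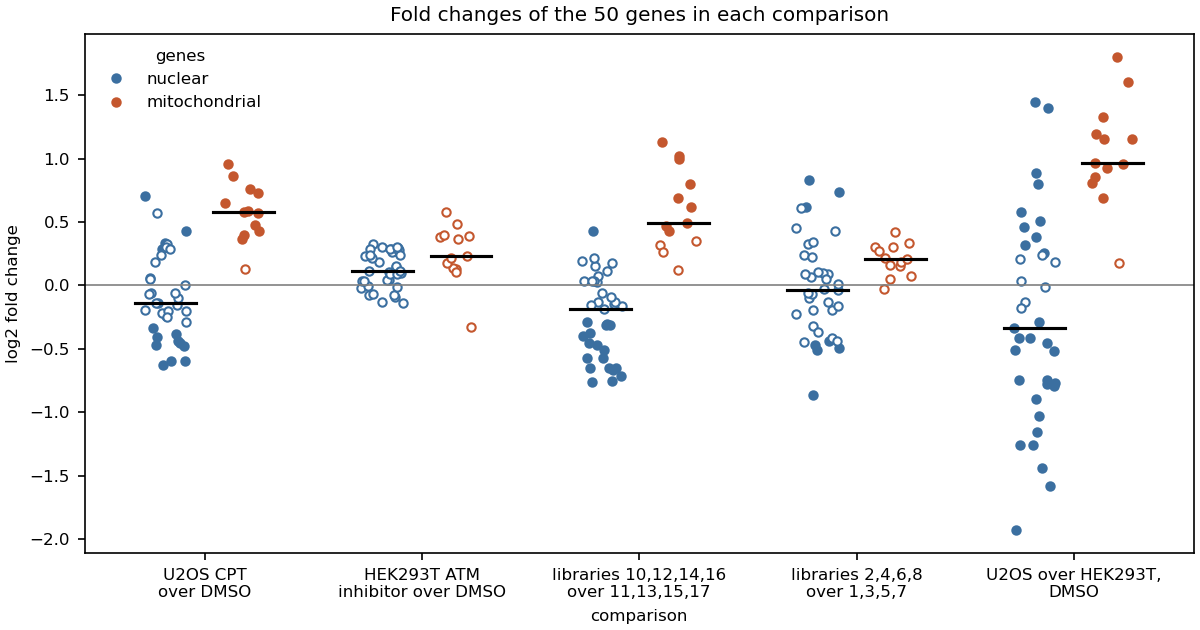
Log2 fold change (y axis) of the 37 nuclear (blue) and the 13 mitochondrial (orange) genes in each of the 5 comparisons (x axis). Points are genes, filled where the adjusted p was under 0.05, and lines are medians. The mitochondrial median is above the nuclear median in each comparison, by 0.58 against −0.14 in U2OS cells with CPT and by 0.23 against 0.11 with the ATM inhibitor.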

How the data were processed

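The authors deposited gene-level counts of 32 QuantSeq 3′ FWD libraries with molecular identifiers, not normalized, from the kit maker's pipeline. Aligner, build and strand setting are not given in the sources used here. Symbols and positions come from GENCODE 29, which matched 56531 of 60107 identifiers. The 5 summary counts and 92 spike-in rows (3 counts in total) were left out, and 0 columns were unused. Depth was 1232674 to 6362433 counts on genes, and 3 counts is the limit for counting error only.

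The members and lists were chosen with earlier results of these data known. Tests used edgeR 4.0.16 in R 4.3.3 (TMM, quasi-likelihood F, a gene needed over 1 count in 2 or more of the libraries fitted, Benjamini-Hochberg adjustment over all genes tested, calls at an adjusted p under 0.05). The study's likelihood ratio test, DESeq2 1.42.0, RLE, filterByExpr, no filter, library sizes without the mitochondrial chromosome, all libraries in one fit, other control libraries, groups as deposited and each library left out were alternatives. Library sizes without TMM factors, and all alternatives for differences between comparisons, were added after seeing the data. Tested on simulated data for U2OS CPT (17952 genes, of which 100 were changed), the fit recovered 100% of 2-fold and 83% of 1.5-fold changes. Of its calls 3.17% were false. The real comparison called 31.9% of genes, so these rates need not hold for it.

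Genes named were the 13 mitochondrial genes, nuclear core subunits, NDUFS4, NDUFA4, and in each comparison the 6 nuclear genes with the largest change among those called without overlap. Further nuclear genes were named after their values were seen. From the lists of other genes up to 3 with the largest change were named per comparison, not all in each, and TOP1, TOP1MT, POLRMT, TFAM, PPARGC1A, MT-RNR1 and MT-RNR2 always. The values of 1 nuclear gene, which stays in the counts, medians and sums, are not reported here.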

Additional observations from a re-analysis of the deposited data

Results flagged for a closer look

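For 22 single genes and 3 sums, the 4 libraries of each of 8 sets were searched for a value far from the other 3 by Dixon's ratio. Of 200 groups 8 held such a value, and chance flags about 1 in 20 groups, or 10 here. In HEK293T DMSO libraries, MT-ND3 was at 10140 CPM in library 22 (8937 to 9134 in the others) and MT-ND5 at 4003 CPM in library 23 (2782 to 2925). The nuclear sum of library 23 was 4117 CPM (4534 to 4564 in the others). MT-ND4L was at 1123 CPM in library 19 of the ATM inhibitor group (1012 to 1023). In library 13, MT-ND1 was at 1616 CPM (1083 to 1102 in libraries 11, 15 and 17) and MT-ND4 at 8345 CPM (7376 to 7530). NDUFS1 was at 69.3 CPM in library 4 (96.5 to 101 in libraries 2, 6 and 8) and NDUFS4 at 86.1 CPM in library 1 (110 to 113 in libraries 3, 5 and 7).

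Differences between comparisons were fitted directly. Between U2OS cells with CPT and HEK293T cells with the ATM inhibitor, 3 mitochondrial genes had a higher and 11 nuclear genes a lower log2 change in the former. Between U2OS cells with CPT and libraries 10 to 17, 8 nuclear genes had a higher and 2 a lower log2 change in the former.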

How the results depend on the processing

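No paired analysis was possible because the groups compared share no replicate numbers and the labels do not tie libraries to repeats. Genes of the 50 that were called kept their direction in every alternative run except when libraries were grouped as deposited. The log2 fold change then turned in libraries 10 to 17 for MT-CYB (−0.0043), MT-ND2 (−0.012), MT-ND4 (−0.10), MT-ND4L (−0.10) and MT-ATP8 (−0.073), and in libraries 1 to 8 for NDUFV3 (−0.32) and NDUFA5 (−0.30). In that grouping 1 nuclear and 0 mitochondrial genes were called for libraries 10 to 17 (mitochondrial median −0.012), and 5 and 1 for libraries 1 to 8 (medians −0.34 and 0.87). The grouping sets libraries of both marker profiles against each other, and its shares of all genes called are not given here.

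With an absolute log2 fold change over 1 required, 0 nuclear and 0 mitochondrial genes were called for U2OS CPT, 0 and 2 for libraries 10 to 17, 0 nuclear for libraries 1 to 8, and 9 and 6 between the lines. DESeq2 called 9 nuclear genes for U2OS CPT. Without TMM factors the nuclear medians were −0.31 for U2OS CPT, 0.051 for the ATM inhibitor and −0.56 between the lines, where the mitochondrial median was 0.73, and 4 nuclear genes were called for libraries 1 to 8. For U2OS CPT the share of calls over all genes that were higher was then 34.9% (52.1% with TMM), and between the lines 42.0% (51.5%). For the ATM inhibitor the likelihood ratio test and the absence of a filter each called 1 mitochondrial gene, and against all 8 HEK293T DMSO libraries, some of which carry U2OS markers, the mitochondrial median was −0.12. With all libraries in one fit 1 mitochondrial gene was called for libraries 1 to 8. RLE normalization left 7 nuclear genes in the difference between U2OS CPT and the ATM inhibitor. The cause of these changes was not tested.

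With each library left out in turn, the nuclear and mitochondrial genes called ranged from 7 to 15 and from 10 to 13 for U2OS CPT, from 0 to 1 and from 0 to 6 for the ATM inhibitor, and from 5 to 9 and from 0 to 1 for libraries 1 to 8. Shares over all genes in these fits are not given here. Nuclear medians ranged from 0.090 to 0.17 for the ATM inhibitor, from −0.29 to −0.16 for libraries 10 to 17 and from −0.41 to −0.29 between the lines. In the difference between U2OS CPT and the ATM inhibitor, 5 to 11 nuclear and 2 to 5 mitochondrial genes were called. Groups of 4 libraries and depths from 1232674 counts limit what can be called.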
